A study of Mus musculus with 13 samples.

Results

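Neutrophil transcripts and the gene for the cytokine that drives neutrophil production were followed across bulk RNA-Seq libraries of the mouse midbrain. The 10 genes were named by symbol, out of 49315 genes counted in each library, as Csf3, its receptor gene Csf3r, the chemokine receptor gene Cxcr2, and the neutrophil genes S100a8, S100a9, Retnlg, Ngp, Camp, Ltf and Clec4e. Male C57BL/6J mice of 8 to 12 weeks carried floxed Ripk3 alleles (Ripk3fl/fl) with or without Aldh1l1-Cre/ERT2, a recombinase that is active after tamoxifen in cells using the astrocyte promoter Aldh1l1. Every animal, the controls included, received tamoxifen (60 mg/kg on 5 days), and then MPTP, a toxin of dopaminergic neurons (20 mg/kg on 5 days), or saline. Midbrains were taken 3 days after the last injection from mice perfused with PBS. The groups were Ripk3fl/fl Aldh1l1Cre- mice given saline (Cre- Saline, n = 3) or MPTP (Cre- MPTP, n = 3) and Ripk3fl/fl Aldh1l1Cre+ mice given saline (Cre+ Saline, n = 3) or MPTP (Cre+ MPTP, n = 4), each library coming from 1 mouse.

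Neutrophils are short-lived granulocytes that are made in the bone marrow and held there until they are needed. Granulocyte colony-stimulating factor (G-CSF), the product of Csf3, binds the receptor encoded by Csf3r on their precursors and on the mature cells, signals largely through STAT3, and raises both their output and their release into blood. Ligands of CXCR2, such as CXCL1 and CXCL2, then draw neutrophils out of marrow and into tissue. Developing neutrophils fill successive granule types, so that primary granule genes such as Mpo and Elane are transcribed early, secondary granule genes such as Ltf, Camp and Ngp later, and S100a8, S100a9 and Retnlg are abundant in mature cells. The healthy brain parenchyma holds very few of these cells. In whole tissue, fewer cells of a type and less RNA per cell cannot be told apart.

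Totals of 11489150 to 29397278 counts per library were assigned to genes, and Cre- MPTP replicate 1 had the lowest. Levels are given as counts and as counts scaled to library size (CPM) with trimmed-mean (TMM) factors. Differences were tested with edgeR's quasi-likelihood test over 19360 genes that had at least 10 counts in at least 3 libraries, and a gene was called at a Benjamini-Hochberg adjusted p under 0.05. Of the 10 genes, 6 passed this filter (Csf3, Csf3r, S100a8, S100a9, Retnlg and Ngp) and 4 did not (Cxcr2, Camp, Ltf and Clec4e). Csf3, S100a8, Retnlg and Ngp passed it only with the help of the Cre- MPTP libraries, so how many of the tested genes differed from that group is a description and no support. Counts of Ripk3 itself were 6, 18 and 40 in Cre- MPTP and 19, 4, 8 and 10 in Cre+ MPTP. They overlapped between the genotypes, so they do not verify which mice had lost the gene.

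Stretches before S100a8, S100a9, Retnlg and Ngp are shown because all 4 are marker genes of one cell lineage. They were read from RefSeq promoter windows of GRCm38.p6, which held 9 of the 10 genes, Csf3 not among them. Each runs 5′ to 3′ on the strand of its gene and ends before the first base of the annotated gene. Capitals mark matches on either strand to TTGCNNAA, a core of the site that C/EBP factors bind. The positions are chr3:90668821-90668977 (plus strand), chr3:90695722-90695971 (minus strand), chr16:48872358-48872607 (plus strand) and chr9:110419558-110419746 (plus strand).
S100a8: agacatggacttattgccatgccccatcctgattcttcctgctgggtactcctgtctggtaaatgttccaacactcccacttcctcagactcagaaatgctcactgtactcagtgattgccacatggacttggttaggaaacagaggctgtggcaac
S100a9: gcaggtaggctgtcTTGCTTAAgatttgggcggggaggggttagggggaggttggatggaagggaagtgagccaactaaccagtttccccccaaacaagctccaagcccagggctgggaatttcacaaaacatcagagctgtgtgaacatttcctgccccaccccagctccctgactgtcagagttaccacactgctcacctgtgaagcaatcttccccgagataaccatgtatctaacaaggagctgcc
Retnlg: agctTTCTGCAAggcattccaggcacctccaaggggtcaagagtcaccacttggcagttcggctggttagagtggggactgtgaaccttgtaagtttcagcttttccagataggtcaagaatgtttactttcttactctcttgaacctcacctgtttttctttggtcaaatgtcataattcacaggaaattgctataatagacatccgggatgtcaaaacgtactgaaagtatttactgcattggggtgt
Ngp: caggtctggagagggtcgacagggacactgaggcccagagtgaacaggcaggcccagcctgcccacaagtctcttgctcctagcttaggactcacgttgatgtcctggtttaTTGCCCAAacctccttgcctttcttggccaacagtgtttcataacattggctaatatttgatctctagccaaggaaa
Over the 250 bases before the RefSeq start, TTGCNNAA on either strand was found in 5 of the 9 promoters (S100a9, Retnlg, Ngp, Ltf and Clec4e), and in 9.57% of the 32817 promoters of that length. In S100a9 the match lay 236 to 229 bases before the start, in Retnlg 246 to 239, and in Ngp 138 to 131 with another at 11 to 4 that falls inside the annotated gene and is not printed. TTCNNNGAA, a site of STAT factors, was in 0 of the 9 and in 7.01% of all promoters. TATAAA was in 2 of the 9 (S100a8 and Clec4e) and in 12.4% of all. A motif for NF-kappaB was in 1 of the 9 (Csf3r) and in 7.25% of all. These are matches of letters in one window, the motifs do not overlap in the printed stretches, and no binding was measured.

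Csf3, the ligand gene, was near zero without MPTP and had at least 677 counts in every Cre- MPTP library. The gene (ENSMUSG00000038067) lies on chromosome 11 from 98701263 to 98703629. Its counts were 0, 6 and 2 in Cre- Saline and 0, 2 and 2 in Cre+ Saline. In Cre- MPTP they were 677, 1082 and 1198, or 73.3, 42.8 and 39.5 CPM. Every Cre- MPTP library stood above every saline library by more than 100 times in counts. In Cre+ MPTP the counts were 5, 224, 0 and 5, or 0.185, 12.5, 0 and 0.191 CPM. Replicate 2 of that group was therefore far above the other 3, which lay in the range of the saline mice, and it was still below the lowest Cre- MPTP library.

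The rise of Csf3 in Cre- mice was 8.91 on the log2 scale (SE 1.92, adjusted p = 0.0237, edgeR). From the pooled counts the ratio was 446-fold, with an exact binomial interval of 226 to 1030 that covers counting error only. The call was lost when any of the 3 Cre- Saline libraries was left out, with log2 fold changes of 8.37, 10.23 and 8.71 and an adjusted p of up to 0.124 in edgeR. In Cre+ mice the log2 fold change with MPTP was 5.76 (SE 2.02, adjusted p = 1, edgeR), and 1.24 without Cre+ MPTP replicate 2. Between the MPTP groups Csf3 differed by -4.06 in Cre+ against Cre- (SE 1.25, adjusted p = 0.159, edgeR), which did not pass although the groups did not overlap, while limma voom called it (-7.60, adjusted p = 1.29e-05). Without Cre+ MPTP replicate 2 that difference was -8.58 and was called (adjusted p = 0.000302, edgeR).

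Csf3r, the receptor gene, overlapped between all 4 groups and was not called by edgeR or DESeq2, but limma voom called it in 1 comparison. It lies on chromosome 4 (126024550 to 126044440) and was the only one of the 10 genes with at least 10 counts in all 13 libraries. Its levels were 4.36, 3.16 and 3.72 CPM in Cre- Saline, 2.60, 4.31 and 8.61 in Cre- MPTP, 5.20, 3.25 and 4.49 in Cre+ Saline, and 5.58, 4.81, 4.61 and 6.21 in Cre+ MPTP. The widest spread was within Cre- MPTP. The log2 fold change with MPTP in Cre- mice was 0.49 (95% interval -0.28 to 1.26, adjusted p = 0.507, edgeR), and 0.99 in limma voom, which called it (adjusted p = 0.0142). Between the MPTP groups it was 0.01 (95% interval -0.71 to 0.73, adjusted p = 0.986, edgeR). These intervals do not show that Csf3r was equal between the groups. Across the 13 libraries the log2 CPM of Csf3 and Csf3r had a Pearson correlation of 0.035, a description over libraries that fall into groups. Microglia transcribe Csf3r as well as neutrophils do.

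Cxcr2, the receptor through which neutrophils follow CXCL1 and CXCL2, had few counts. It is on chromosome 1 (74153989 to 74161246). Cre- MPTP held 11, 3 and 86 counts, against 0, 0 and 4 in Cre- Saline, 2, 0 and 5 in Cre+ Saline and 0, 4, 1 and 2 in Cre+ MPTP. Replicates 1 and 3 of Cre- MPTP were above every other library and replicate 2 was within their range. Pooled, the ratio of Cre- MPTP to Cre- Saline was 30.2 (exact interval 11.4 to 113) and that of Cre+ MPTP to Cre- MPTP was 0.0484 (0.019 to 0.103), both for counting error only and without a test between mice.

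**Figure D1:**
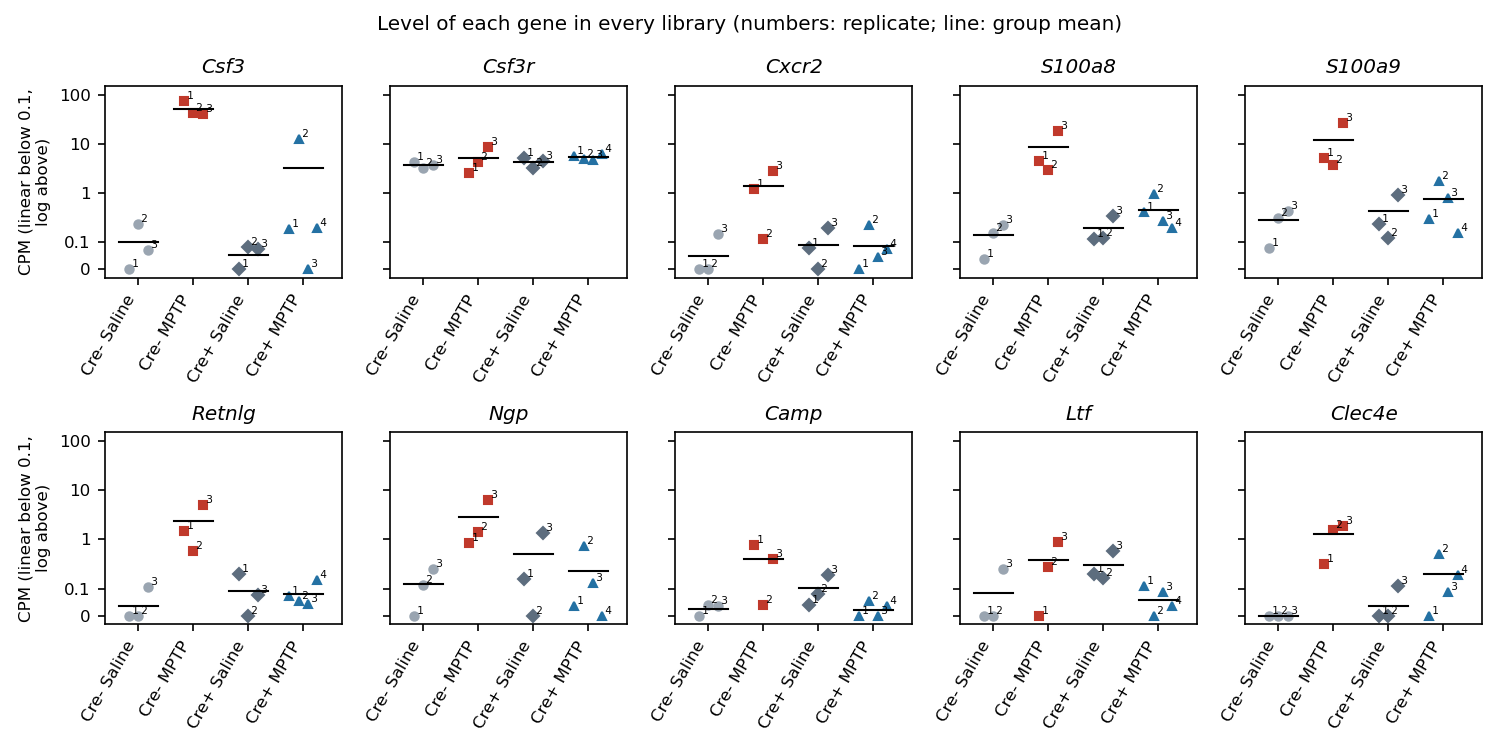
Library-scaled counts (CPM) of the 10 genes in each of 13 libraries (y axis, linear below 0.1 and logarithmic above), with points labelled by replicate and lines at group means. Csf3 reached 39.5 to 73.3 CPM in Cre- MPTP and 12.5 CPM in 1 Cre+ MPTP library, Csf3r was between 2.60 and 8.61 CPM everywhere, and S100a8 and S100a9 were highest in Cre- MPTP replicate 3.

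S100a8 and S100a9 encode the subunits of calprotectin, the calcium-binding protein that fills the neutrophil cytosol, and both had their highest levels in the Cre- MPTP group. They are neighbours on chromosome 3, S100a8 at 90668978 to 90670035 and S100a9 at 90692632 to 90695721. S100a8 had 1, 4 and 6 counts in Cre- Saline, 41, 74 and 564 in Cre- MPTP, 3, 3 and 9 in Cre+ Saline and 11, 17, 6 and 5 in Cre+ MPTP. In CPM the Cre- MPTP libraries were at 4.44, 2.93 and 18.6, and the Cre+ MPTP libraries at 0.406, 0.950, 0.266 and 0.191. The lowest Cre- MPTP library was above the highest of the other 10 libraries, while the Cre+ MPTP libraries overlapped both saline groups. S100a9 had 2, 8 and 12 counts in Cre- Saline, 47, 95 and 799 in Cre- MPTP, 6, 3 and 24 in Cre+ Saline and 8, 31, 18 and 4 in Cre+ MPTP. It showed the same separation.

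In Cre- mice S100a8 was higher with MPTP by 5.92 on the log2 scale (SE 0.894, adjusted p = 0.00295, edgeR) and S100a9 by 5.38 (SE 1.09, adjusted p = 0.0158, edgeR). S100a8 kept its call whichever of the 13 libraries was left out, with 4.65 at the lowest, without Cre- MPTP replicate 3. S100a9 lost its call without any one of the Cre- Saline libraries (4.96, 5.47 and 5.89, adjusted p up to 0.0929 in edgeR) and was at 3.95 without Cre- MPTP replicate 3. In Cre+ against Cre- MPTP mice, S100a8 fell by 4.31 (SE 0.711, adjusted p = 0.0133, edgeR) and S100a9 fell by 4.05 (SE 0.89, adjusted p = 0.0432, edgeR). S100a8 no longer passed when Cre+ MPTP replicate 1 (-4.28) or 3 (-4.13) was dropped, with an adjusted p of up to 0.0611 in edgeR, and it stood at -3.03 after dropping Cre- MPTP replicate 3. The S100a9 call held in 3 of 13 such fits, with log2 fold changes from -4.85 to -2.60 and adjusted p from 0.00902 to 0.154 in edgeR. The lowest size, -2.60, was the fit without Cre- MPTP replicate 3.

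Retnlg encodes resistin-like gamma, a small secreted protein of the neutrophil lineage, and it lies on chromosome 16 (48872621 to 48874496). It had 0, 0 and 3 counts in Cre- Saline, 14, 15 and 155 in Cre- MPTP, 5, 0 and 2 in Cre+ Saline and 2, 1, 1 and 4 in Cre+ MPTP. Outside Cre- MPTP no library exceeded 5 counts, and all 3 Cre- MPTP libraries did. The log2 fold change was 5.83 with MPTP in Cre- mice (SE 1.11, adjusted p = 0.0113, edgeR), and -4.78 between the MPTP groups (SE 0.91, adjusted p = 0.0247, edgeR). The pooled ratio to Cre- Saline, which rests on 3 counts there, was 74.1 with an exact interval of 24.9 to 362. The first call did not hold once Cre- Saline replicate 1 (5.33) or 2 (5.32) was dropped. Its value became 4.52 on dropping Cre- MPTP replicate 3, and 8.88 on dropping Cre- Saline replicate 3. The second did not hold on dropping Cre- MPTP replicate 3 (-3.47) or any single Cre+ MPTP library (-5.27 to -4.59).

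Among the secondary granule genes, Ngp, which encodes neutrophilic granule protein, did not pass in edgeR or DESeq2 and was called by limma voom in both comparisons. It is on chromosome 9 (110419747 to 110423012). Its counts were 0, 3 and 7 in Cre- Saline, 8, 36 and 189 in Cre- MPTP, 4, 0 and 35 in Cre+ Saline and 1, 13, 3 and 0 in Cre+ MPTP. The 3 Cre- MPTP libraries, at 0.866, 1.43 and 6.23 CPM, were above all Cre- Saline and Cre+ MPTP libraries, but Cre+ Saline replicate 3 reached 1.33 CPM. The log2 fold change in Cre- mice was 4.48 (SE 1.45, adjusted p = 0.16, edgeR), and it was 4.88 and called without Cre- MPTP replicate 1. Between the MPTP groups it was -3.84 (SE 1.26, adjusted p = 0.176, edgeR). In limma voom the values were 4.80 (adjusted p = 0.0158) and -5.34 (adjusted p = 0.0184).

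Camp, the gene of the antimicrobial peptide cathelicidin, and Ltf, that of the iron-binding protein lactoferrin, were near zero in every group. Camp (chromosome 9, 109847379 to 109849617) had 7, 1 and 12 counts in Cre- MPTP, and 0, 1 and 1 in Cre- Saline, 1, 2 and 5 in Cre+ Saline and 0, 1, 0 and 1 in Cre+ MPTP. Ltf (chromosome 9, 111019271 to 111042767) had 0, 7 and 27 counts in Cre- MPTP, 0, 0 and 7 in Cre- Saline, 5, 4 and 15 in Cre+ Saline and 3, 0, 2 and 1 in Cre+ MPTP. The Ltf counts of Cre- MPTP replicates 1 and 2 lay within the range of the saline libraries, and only replicate 3 was above it. Pooled, the ratio of Cre- MPTP to Cre- Saline was 5.86 for Ltf (exact interval 2.56 to 15.7) and 12.1 for Camp (2.93 to 107), for counting error only. For Ltf the ratio of Cre+ Saline to Cre- Saline was 3.52 (1.47 to 9.67). That of Cre+ MPTP to Cre+ Saline was 0.203 (0.068 to 0.511), the opposite direction to Cre- mice.

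Clec4e encodes Mincle, a receptor for glycolipids of microbes and for material of dead cells, which neutrophils and activated macrophages both carry. The gene is on chromosome 6 (123281789 to 123289870). It had 3, 40 and 58 counts in Cre- MPTP and 0 in all 3 Cre- Saline libraries, with 0, 0 and 3 in Cre+ Saline and 0, 9, 2 and 5 in Cre+ MPTP. Against a floor of 3 counts per library, its mean level in Cre- MPTP was at least 11.1-fold higher than in Cre- Saline. The pooled ratio of Cre+ MPTP to Cre- MPTP was 0.11 (exact interval 0.0603 to 0.187, counting error only), and the lowest Cre- MPTP library overlapped Cre+ MPTP.

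Counting the calls, 4 of the 6 tested genes were higher with MPTP in Cre- mice (Csf3, S100a8, S100a9 and Retnlg), where 2.23% of all tested genes were called higher and 0.956% lower. Levels of 5 of the 6 did not overlap between these groups, against 7.11% of all genes in that direction. Fitted on these 2 groups alone, edgeR called 1 of them, Csf3. In Cre+ mice 0 of the 6 were called by edgeR or limma voom. DESeq2 called none of them either, but it gave no adjusted p for Csf3 in any comparison. Over all genes edgeR called 0%, DESeq2 75 higher and 8 lower, and limma voom 183 higher and 111 lower. At an unadjusted p under 0.05 in edgeR there were 1 of the 6 and 672 of all 19360. In Cre+ against Cre- MPTP mice 3 of the 6 were lower (S100a8, S100a9 and Retnlg), where 1.03% of all tested genes were called lower and 0.517% higher, and 5 did not overlap, against 5.07% of all genes in that direction. In edgeR fitted on these 2 groups alone, 0 of the 6 and 0 of all genes were called. Both of these comparisons use the same 3 Cre- MPTP libraries, so they are not independent of each other. The median log2 fold change of the 6 was 5.61 with MPTP in Cre- mice and 0.52 in Cre+ mice, beside 0.0251 and 0.00337 over all tested genes, and it was -4.05 between the MPTP groups, beside 0.0296.

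Without MPTP the genotypes were not told apart by any of the 6 genes. None was called between Cre+ Saline and Cre- Saline by edgeR, DESeq2 or limma voom, as for 0% of all genes by edgeR, and 0 were at an unadjusted p under 0.05. DESeq2 gave no adjusted p for Csf3 here. The log2 fold changes ran from -0.90 for Csf3 (95% interval -7.53 to 5.73) to 1.94 for Ngp (95% interval -1.31 to 5.20), so these intervals are wide. The interaction, which asks whether the response to MPTP differed between genotypes, was called for 0 of the 6 by edgeR and for 0.0103% of all genes. Its log2 values were -4.78 for S100a8 (SE 1.26, adjusted p = 0.276, edgeR), -4.65 for S100a9 (SE 1.42, adjusted p = 0.44) and -5.95 for Retnlg (SE 1.76, adjusted p = 0.396). It was -3.16 for Csf3 (SE 4.03, adjusted p = 0.848, edgeR), and 4 of the 6 were at an unadjusted p under 0.05, beside 1116 of all 19360 genes. DESeq2 called the interaction for 3 genes, S100a8, S100a9 and Retnlg, without an adjusted p for Csf3, and limma voom for 1, Csf3. Over all genes DESeq2 called 83 higher and 140 lower of 18802, and limma voom 291 and 398 of 19360. A difference in response between the genotypes was thus called by some tools and not by edgeR.

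**Figure D2:**
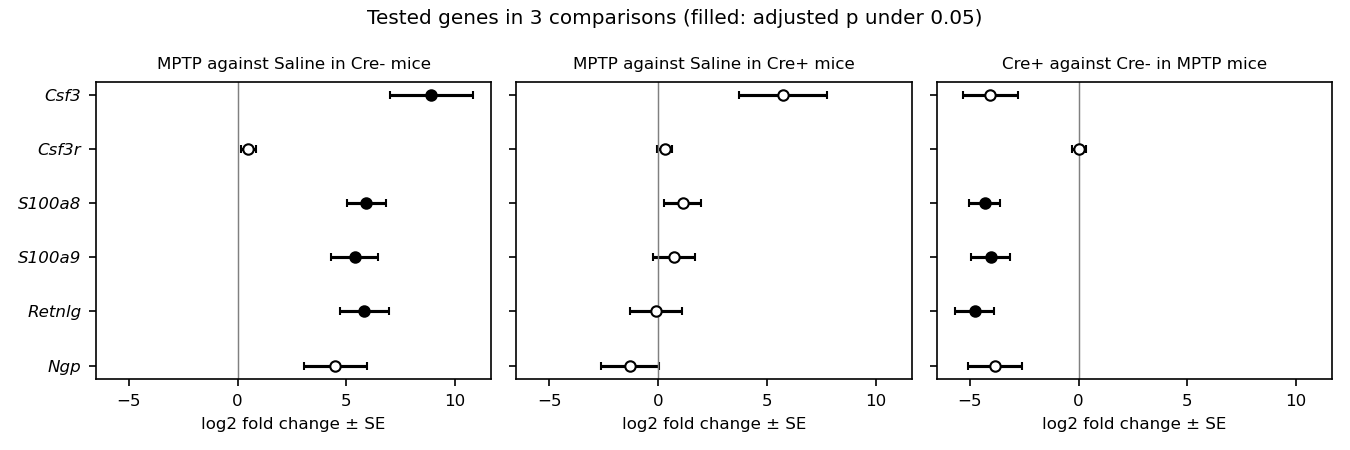
Log2 fold changes of the 6 tested genes (x axis, points with 1 SE) in 3 comparisons, filled where the adjusted p was under 0.05 in edgeR's quasi-likelihood test. With MPTP in Cre- mice 4 points are filled, in Cre+ mice 0, and between the MPTP groups 3, with Csf3r at 0.49, 0.30 and 0.01.

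Within Cre- MPTP the ligand and the neutrophil genes were spread over the 3 mice in different ways. Replicate 3 held 71.6% of the group's summed CPM of S100a8, 74.9% of S100a9, 70.8% of Retnlg, 73.1% of Ngp, 76.3% of Ltf and 68.4% of Cxcr2. It held 25.4% of Csf3, which was instead highest in replicate 1 with 47.1%. The chemokine genes Cxcl1 and Cxcl2 were also spread more evenly, with 32.8% and 34.8% in replicate 3. Other such genes were not: replicate 3 held 50.1% of Sele and 52.4% of Selp, and replicate 1 held 51.2% of Cxcl5. Of 9 cytokine, chemokine and adhesion genes, Csf3 included, 4 were highest in replicate 3, 3 in replicate 1 and 2 in replicate 2. Their median share in replicate 3 was 38.6%. Replicate 1, the library of lowest total, had 21101 genes with a count, against 26872 and 26527 in replicates 2 and 3. Its TMM factor was 0.804, against 1.025 and 1.031. Whether the make-up of that library shaped these shares was not tested. Of the 9 genes other than Csf3, 8 were highest in replicate 3 and 1, Camp, was highest in replicate 1, and the median share of replicate 3 was 70.8%. The wider neutrophil list was more even. Of its 38 genes with at least 10 counts in the group, 22 were highest in replicate 3, 14 in replicate 1 and 2 in replicate 2, with a median share of 49.9% in replicate 3. In S100a9 the level of replicate 3 was 5.96 times the mean of the other two. Mean levels per kilobase of exon in Cre- MPTP were 36.7 ± 13.2 CPM for Csf3 (SD, n = 3), 22.5 ± 24.3 for S100a9, 12.5 ± 12.5 for S100a8, 3.96 ± 3.93 for Retnlg and 2.33 ± 2.41 for Ngp. They were 1.43 ± 0.858 for Csf3r, 0.525 ± 0.474 for Camp, 0.453 ± 0.449 for Cxcr2, 0.256 ± 0.169 for Clec4e and 0.113 ± 0.132 for Ltf. All of these genes were measured in the same 3 mice, and differences between neighbours in this order were not tested.

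**Figure D3:**
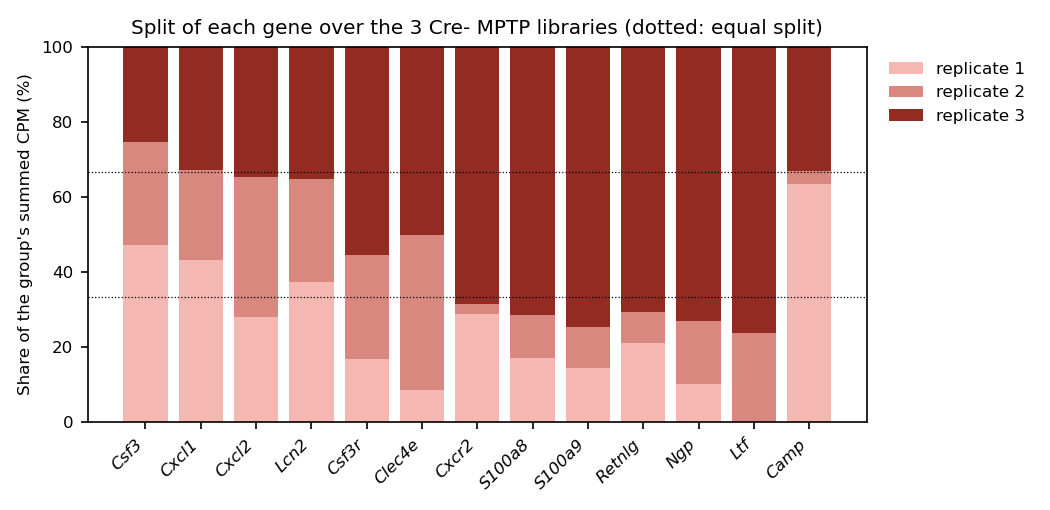
Share of the summed CPM of the Cre- MPTP group held by each of its 3 libraries (y axis, percent), for Csf3, 3 other inflammatory genes and the 9 neutrophil genes. Replicate 3 held 25.4% of Csf3 but 70.8% to 76.3% of S100a8, S100a9, Retnlg, Ngp and Ltf.

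In Cre+ MPTP the one library with Csf3 at 12.5 CPM, replicate 2, was also the highest of its group for S100a8, S100a9, Ngp, Cxcr2 and Clec4e, though at 0.950 CPM its S100a8 stayed below the lowest Cre- MPTP library. It was not the highest for Retnlg (1 count, against 4 in replicate 4), Ltf (0 counts) or Csf3r, which was below replicates 1 and 4. Its chemokine counts were likewise set apart. Cxcl1 had 166 counts there against 9, 6 and 21 in the other 3 libraries, and Cxcl2 had 49 against 0, 0 and 0. In Cre+ MPTP without this library, Csf3 and Cxcl2 held at most 5 counts each.

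Cxcl1 and Cxcl5, ligands that draw neutrophils through CXCR2, were higher with MPTP in Cre- mice. Of 4 tested genes of the chemokine list, 3 were higher there and 2 lower in Cre+ against Cre- MPTP mice. Over all tested genes, 2.23% were called higher and 1.03% lower in these comparisons. Cxcl1 had 575, 870 and 1430 counts in Cre- MPTP against 2, 5 and 2 in Cre- Saline, a rise of 8.64 on the log2 scale (SE 1.4, adjusted p = 0.00439, edgeR), and fell by 4.21 between the MPTP groups (SE 0.937, adjusted p = 0.0452, edgeR). Cxcl5 rose by 3.20 in Cre- mice, as did Ackr1, which is no ligand but an endothelial gene for a receptor that carries chemokines, by 1.40. Cxcl2 had 49, 178 and 200 counts in Cre- MPTP and 0 in all Cre- Saline libraries and did not pass (adjusted p = 0.0592, edgeR). It was tested only because of its counts in Cre- MPTP, so the tally of this list is a description and no support. The other ligands were too low to test: Cxcl3 had 12 counts over Cre- MPTP, Ppbp had 0 there, and Cxcl15 had 0 in all 13 libraries. Cxcl12, the chemokine that holds neutrophils in marrow, moved the other way with MPTP in Cre- mice, by -1.34 (adjusted p = 0.00154, edgeR). Between the MPTP groups it differed by 0.89 (adjusted p = 0.0206, edgeR). Of 5 tested genes of the marrow retention list, it was the 1 called lower in Cre- mice, and 4 were not called. Over all tested genes, 0.956% were called lower there. These are midbrain levels, and marrow was not sampled.

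Genes upstream and downstream of G-CSF were also higher in Cre- MPTP. Of 8 tested inducers of Csf3, 5 rose with MPTP in Cre- mice and 3 of them (Tnfrsf1a, Il17ra and Myd88) fell between the MPTP groups, with 0 in the other direction. Tnfrsf1a, the main receptor for TNF, rose by 2.13 and fell by 1.87, and Il17ra, the receptor subunit for IL-17, rose by 1.37 and fell by 1.31. Il17a itself had 0 counts in all 13 libraries, and Tnf had 1, 20 and 24 counts in Cre- MPTP against 1, 1 and 0 in Cre- Saline. Tnf passed the filter only with the help of the Cre- MPTP libraries. How many of the inducers differed from that group is thus a description and no support. Of 12 tested genes of G-CSF receptor signalling, 6 rose in Cre- mice and 3 fell between the MPTP groups. Socs3, the feedback inhibitor of the receptor, rose by 4.64 and fell by 3.19, and Stat3 rose by 1.17 and fell by 0.86. Cre- MPTP replicate 1, the library of lowest total, had 100 CPM of Socs3, or 64.6% of the group's sum, against 26.9 and 28.1 in the other 2. Many other cytokines act on Socs3 and Stat3, and which cells carried these transcripts was not measured. Among the genes of colony-stimulating factors and their receptors, 3 of 9 tested were higher in Cre- MPTP, Csf3 included. Csf1, the macrophage factor, rose by 1.23, and Csf2rb, the shared beta receptor subunit, by 2.52.

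Other neutrophil genes gave a mixed picture. Of 39 granule, surface and cytosol genes beyond the 10, 21 could be tested. With MPTP in Cre- mice 13 of the 21 were higher and 0 lower (median log2 fold change 2.81), beside 2.23% and 0.956% of all tested genes. Between the MPTP groups 10 were lower and 0 higher (median -2.26), beside 1.03% and 0.517%. In Cre+ mice 0 were called (median 0.29, edgeR). Some of the 21, such as Cd177 and Mmp8, passed the filter only with the help of the Cre- MPTP libraries. How many of the 21 differed from that group is thus a description and no support. Lcn2, the gene of lipocalin 2 and also one that activated astrocytes make, had 5814, 11623 and 18019 counts in Cre- MPTP against 4, 23 and 27 in Cre- Saline, a rise of 9.67. Pglyrp1, of a granule protein that binds peptidoglycan, rose by 2.19, and Chil3, of a chitinase-like protein, by 6.48. Cd177, a neutrophil surface gene, rose by 5.37, and Mmp8, neutrophil collagenase, by 6.47. The decoy receptor gene Il1r2 rose by 2.29 and the formyl peptide receptor gene Fpr2 by 2.83. All 7 fell in Cre+ against Cre- MPTP mice.

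Several other genes of the neutrophil lineage stayed at or near zero, also where S100a8 was high. Ly6g, the gene of the surface antigen that identifies mouse neutrophils, had 0, 0 and 3 counts in Cre- MPTP and at most 2 in any other library. Cxcr1 had 0 counts in Cre- MPTP and Ctsg, of the primary granule protease cathepsin G, had 0 counts in all 13 libraries. Elane had 0, 1 and 2 counts in Cre- MPTP, Mpo 3, 8 and 2, and Cebpe, of a factor needed for secondary granules, 5, 0 and 2. These counts overlapped those of the other groups. Primary granule genes are transcribed early in development, so their low counts do not tell whether mature neutrophils were present. Prtn3, the primary granule gene with more counts, overlaps Plppr3 on the other strand and was not called. Ly6g and the primary granule genes were chosen for naming after their values were seen.

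Clec4e needs the gamma chain encoded by Fcer1g to signal and pairs with Clec4d. Of 8 tested genes of this complex, 3 rose with MPTP when Cre was absent, beside 2.23% of all tested genes. Fcer1g rose by 1.61 and Clec4d by 6.09, while the kinase gene Syk was at 1.18 and did not pass (adjusted p = 0.0647, edgeR). Clec4d passed the filter only with the help of the Cre- MPTP libraries, where its lowest level was 0.217 CPM. How many of the 8 differed from that group is thus a description and no support. For the receptors of S100a8 and S100a9, Tlr4 was at 0.80 (adjusted p = 0.518, edgeR) and the co-receptor gene Cd14 rose by 2.86 and fell by 2.08 between the MPTP groups. Of 5 tested transcription factors of granulocytes, 3 rose in Cre- mice, beside 2.23% of all tested genes. They were led by Cebpd (4.79), which fell by 4.54 between the MPTP groups. Cre- MPTP replicate 1 had 363 CPM of Cebpd against 31.1 and 30.1 in the other 2 libraries of the group. The endothelial adhesion genes Icam1, Selp and Sele, which leukocytes bind on entry, rose by 4.07, 6.40 and 7.82 in Cre- mice, and Icam1 and Selp fell by 2.53 and 3.09 between the MPTP groups. Ackr1, Stat3, Cebpd, Il1r2, Fpr2, Csf2rb, Myd88, Icam1, Selp and P2ry12 overlap other annotated genes, and whether the counting used strand is not given in the sources used here.

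Markers of other blood cells were set beside these genes. Among 5 tested erythrocyte genes, 0 were called in either comparison. Their summed level was 10.5 to 15.1 CPM in Cre- MPTP, 1.59 to 13.6 in Cre- Saline, 2.64 to 11.6 in Cre+ Saline and 1.6 to 87.5 in Cre+ MPTP, and 0 of the 7 listed genes were at 0 throughout a group. The highest erythrocyte sum, 87.5 CPM in Cre+ MPTP replicate 4, stood beside S100a8 at 0.191 CPM, the lowest of that group. In the saline mice, replicate 3 of each genotype was highest both for haemoglobin genes (12.8 and 10.5 CPM) and for the sum of S100a8, S100a9, Retnlg and Ngp (1.02 and 2.66 CPM). Cre- MPTP replicates 1, 2 and 3 had haemoglobin sums of 15.1, 9.7 and 13.2 CPM and neutrophil sums of 11.9, 8.71 and 56.3. The share of residual blood in any of these levels was not tested.

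**Figure D4:**
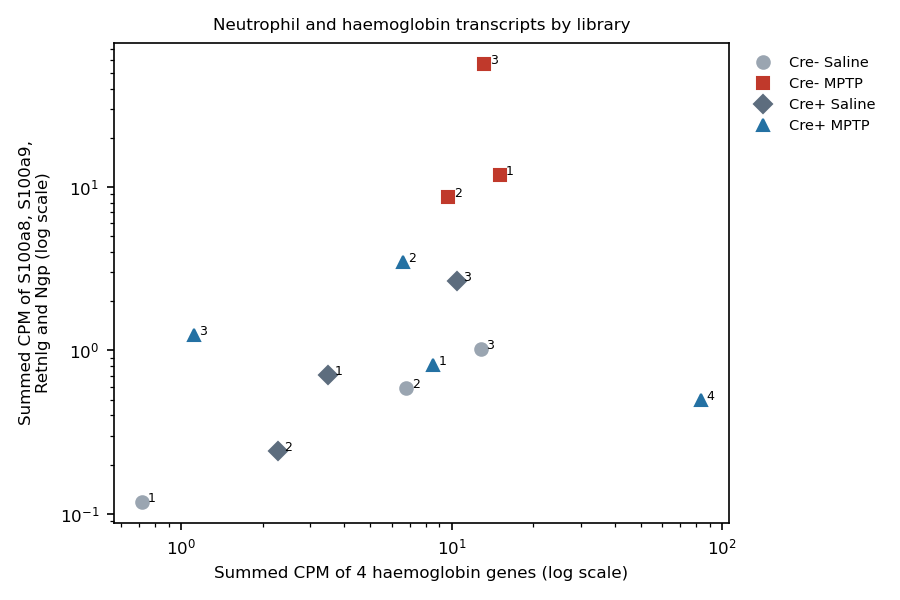
Summed CPM of S100a8, S100a9, Retnlg and Ngp (y axis, log scale) against the summed CPM of 4 haemoglobin genes (x axis, log scale) in the 13 libraries, labelled by replicate. The 3 Cre- MPTP libraries lie at 8.71 to 56.3 on the y axis above all others, at haemoglobin sums of 9.7 to 15.1, and Cre+ MPTP replicate 4 lies at 83.5 on the x axis with 0.496 on the y axis.

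Of 7 tested monocyte markers, 2 were higher in Cre- MPTP, Ly6c2 (2.66) and Cd177, which is itself a neutrophil gene. Over all tested genes, 2.23% were called higher there. The sums of the 10 listed genes overlapped between groups, at 63.3 to 151 CPM in Cre- MPTP, 71.3 to 137 in Cre- Saline, 136 to 172 in Cre+ Saline and 107 to 264 in Cre+ MPTP, and 0 of the 10 were at 0 throughout a group. Fn1, Nr4a1 and Vcan, at means of 52.9, 31.6 and 19.3 CPM in Cre- Saline, carried most of this sum. Plac8 and Ms4a4c, looked at after their values were seen and too low to test, had 7 and 5 counts over Cre- Saline and 59 and 84 over Cre- MPTP. Plac8 was at 0.554 to 1.19 CPM in Cre- MPTP and at most 0.399 in any other library. Platelet and lymphocyte markers had 0 calls in 4 and 3 tested genes. Of 8 microglia markers, 3 were lower in Cre- MPTP and the same 3 (P2ry12, Fcrls and Siglech) were higher in Cre+ against Cre- MPTP mice. Over all tested genes, 0.956% were called lower and 0.517% higher in these comparisons. The part of these cell types in the neutrophil gene levels was not tested.

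Over all 13 libraries, the 5 tested genes outside the 10 whose log2 CPM were most like Csf3 were Mmp3, Ccl5, Il1rn, Marco and Ifitm1 (Pearson r of 0.987, 0.985, 0.979, 0.979 and 0.977). Those most like S100a8 were Ikbke, Apod, Mmp8, Il1r2 and Ccl5 (0.972, 0.971, 0.97, 0.961 and 0.951). S100a8 itself had an r of 0.972 with S100a9 and of 0.912 with Csf3. The libraries share groups, so that any gene raised in Cre- MPTP alone scores high, and these values are a description.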

How the data were processed

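RNA-Seq was performed on midbrains of 13 mice with a stranded total RNA kit. Per the labels and methods, Trimmomatic 0.36 trimmed the reads, STAR 2.5.2b aligned them to GRCm38, and featureCounts (Subread 1.5.2) counted unique hits per gene; the authors deposited these counts as whole numbers without normalization. The authors' DESeq2 results were not used here. Gene names came from GENCODE M21 (49056 of 49315 genes). Counts were analysed with edgeR 4.0.16 in R 4.3.3, with TMM factors, 1 term per group over 13 libraries and a quasi-likelihood test in 5 contrasts. The SE is the absolute log2 fold change over the square root of F, and 95% intervals use it with the t distribution. Alternatives were DESeq2 1.42.0, limma 3.58.1 voom with quality weights, other filters, scaling, samples and a replicate block. On simulated counts edgeR recovered 135 of 200 changed genes with 5 false calls (MPTP against Saline in Cre- mice, 19360 genes). No libraries were identical. The labels number the mice of each group. Named genes were all 10 genes, the called genes of each list (at most 4 by p), genes that a listed protein binds or needs and the 5 most like Csf3 and S100a8, with 1 exception that is not reported here. The genes and lists were chosen with earlier results of these data known. CPM used effective library sizes, and pooled count ratios and floors (3 counts) cover counting error only.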

Additional observations from a re-analysis of the deposited data

Results flagged for a closer look

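In the group of 4 Cre+ MPTP mice, 19 values were examined (10 genes and the summed level of 9 marker lists) for a library whose gap to its nearest neighbour was too large a share of the group's range by Dixon's 95% critical value, and 3 passed. The critical value is set for a rate of about 1 in 20 with independent, normally distributed values. Counts near zero and genes that vary together do not meet this, so the 3 are not compared with that rate. Csf3 was at 12.5 CPM in replicate 2, against 0 to 0.191 in the other libraries, a gap of 0.985 of the range. The same library held the highest monocyte marker sum, 264 CPM, with a gap of 0.879, and Fn1, which other cells also transcribe, made up 203 CPM of it. The erythrocyte marker sum was 87.5 CPM in replicate 4, with a gap of 0.911, and S100a8 and S100a9 were at their lowest of the group there.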

How the results depend on the processing

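With MPTP in Cre- mice, the number of the 10 genes called was 4, and was within 1.5 times of that under DESeq2, limma voom, other filters, DESeq2 size factors and a replicate block. It was 1 in edgeR on the 2 groups alone, and 1 to 5 with 1 library left out. In Cre+ against Cre- MPTP mice it was 3, but 5 in limma voom, 0 in edgeR on the 2 groups and 0 with a replicate block, and 0 to 3 with 1 library left out. The interaction had 0 calls in edgeR, 3 in DESeq2 and 1 in limma voom. Both other comparisons had 0 calls under every alternative run.

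Same-numbered mice deviated from their group means with correlations of -0.179 to 0.184 in 18 pairs, 3 of them over 0.1, and 4 of 12 libraries correlated best with their own number, so the numbers were not taken as a pairing. Under the replicate block calls over all genes went from 431 higher and 185 lower to 297 and 131 with MPTP in Cre- mice, and from 100 and 199 to 0 and 0 between the MPTP groups. Cre+ MPTP replicate 4, alone in its number, is fitted exactly by the block.

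The sign of Csf3r, which was never called between the MPTP groups, turned from 0.01 to -0.02 (DESeq2), -0.32 (limma voom), -0.01 (DESeq2 size factors) and -0.03 (replicate block), and ranged from -0.29 to 0.60 with 1 library left out, with -0.12, -0.08 and -0.02 without Cre- MPTP replicate 2, Cre+ MPTP replicate 4 and Cre+ MPTP replicate 1. In Cre- mice it ranged from -0.09 (without Cre- MPTP replicate 3) to 0.79 with 1 library left out, and for the interaction from -0.49 to 0.39. A fit without the library of lowest total (Cre- MPTP replicate 1) and that of highest haemoglobin (replicate 4 of Cre+ MPTP), chosen after the data were seen, gave Csf3r -0.38, S100a8 -4.38, S100a9 -4.08 and Retnlg -5.50 between the MPTP groups, the last 3 called by edgeR. The cause of these shifts was not tested.

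Calls over all genes ranged from 105 higher and 5 lower (edgeR on 2 groups) to 1373 and 1251 (limma voom) in Cre- mice, with 756 and 377 in DESeq2. Between the MPTP groups they were 0 and 0 on 2 groups, 269 and 565 in DESeq2 and 488 and 736 in limma voom. DESeq2 gave no adjusted p for Csf3 in any comparison. Cxcr2, Camp, Ltf and Clec4e had too few counts for the test, and depth limits what their zeros show. Without the filter, Clec4e was called in Cre- mice (adjusted p = 0.0118, edgeR) and the other 3 were not.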
